A study of Mus musculus with 7 samples.

Results

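Short 5′ untranslated regions (5′ UTRs) are described here as ribosome profiling counted them in mouse epidermis, the stratified outer layer of the skin. They were taken as every transcript of the deposited count table whose counted 5′ UTR was at least 30 and under 200 nt long and whose 5′ UTR and coding counts were listed in all 4 ribosome profiling libraries. Where a gene symbol appeared more than once, the row with the most coding footprints was kept. This gave 6101 of 13167 transcripts, or 6101 of the 10685 that had all values, against 3547 with a 5′ UTR of 200 nt and over and 1037 with one under 30 nt. The median counted length was 103 nt, and the median coding length of the same transcripts was 1188 nt. Another 1102 transcripts with a 5′ UTR of this length were listed in some libraries but not in all 4, of which 112 were listed in both KO libraries and neither WT library, and 250 the other way round.

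The groups were 2 KO libraries, from epidermis in which the gene of Pelota was removed by transgenic knockout, and 2 WT libraries from wild-type epidermis. All libraries were made from RNA depleted of ribosomal RNA. The labels used here do not give the age or strain of the mice, the driver of the knockout or the source of each replicate, and every p-value therefore reflects no more than the spread between these libraries, which may be technical. RNA-seq counts were not used here, so a change in footprints cannot be separated from a change in RNA level, and fewer cells of a type and less RNA per cell cannot be told apart.

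The 5′ UTR is the stretch of a messenger RNA that the small ribosomal subunit scans from the cap to the start codon. Ribosomes that start at an upstream AUG or at a near-cognate codon, or that pause there, leave footprints in it, and translation of an upstream reading frame usually lowers translation of the main one. Pelota, with its partner Hbs1l, recognises ribosomes stalled on a messenger RNA and helps to split and release them. A footprint is the piece of RNA that a ribosome shields from nuclease. Here its number in the 5′ UTR per nt was divided by its number in the coding region per nt of the same transcripts and given in percent, a within-library density ratio that needs no scaling between libraries.

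To show what a short 5′ UTR can hold, the first 50 bases after the start of transcription were searched for ATG on the transcript strand (3 letters, any overlap allowed; only the transcript strand bears on translation). The sequences are those of RefSeq on GRCm38.p6. Of the transcripts described here 4617 matched the table by symbol, 3745 of them had 1 start, and 3281 of those had a 5′ UTR of at least 50 nt, or long enough to fill the window. ATG lay in the window of 617, or 18.8%, against 45.8% of all 22862 genes with 1 start in the table, non-coding ones included. Those 22862 were not limited to 5′ UTRs of at least 50 nt, so main start codons can lie in their windows. The shares are therefore not like for like. The starts in the table need not be those of the counted transcripts, and the window is genomic, so it can run past the end of a first exon.

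Among the members named below with a mean of at least 20 footprints in the 5′ UTR, 28 had 1 start and 4 of these held ATG in the window. They are shown because each is described with its counts further on; 12 bases stand on each side of the ATG where the window and the flank allow, the ATG is in capitals, and all run 5′ to 3′ on the transcript strand.
Krt79: cagctggagtgcATGgaacccagggcc
Klk7: tcagataaccctATGctcaaagc
Skint5: tgctacttttacATGgacaagagagct
Sprr2a2: aatccactccccATGgggtgaggcagg
The stretch of Krt79 is chr15:101940310-101940336 on the minus strand, and its ATG begins at base 1 after the start. A stop codon lies 11 codons further on in the same frame, past the letters shown. That of Klk7 is chr7:43811321-43811343 on the plus strand, with the ATG at base 40. That of Skint5 is chr4:113999477-113999503 on the minus strand, with the ATG at base 13. That of Sprr2a2 is chr3:92250670-92250696 on the plus strand, with the ATG at base 36 and a stop codon 2 codons further on in the same frame. None of Klk7, Skint5 and Sprr2a2 had a purine at the third base before the ATG. In Krt79 the letters before the ATG lie upstream of the start of transcription and are not part of the transcript. The base after the ATG was G in Krt79, Skint5 and Sprr2a2 and not in Klk7. For Klk7 and Skint5 no stop codon followed in the same frame within the window. The other 24 named members, among them Calm4, Calm5, Sprr2b, Ap2m1, Sdr16c6, Cldn4 and Pla2g2f, held no ATG in these letters.

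The short 5′ UTRs held few footprints. Their counts summed to 24260 and 25780 in the KO libraries and to 16675 and 11789 in the WT libraries, beside 2837444, 2604089, 2925581 and 2368528 coding footprints in the same transcripts. The median short 5′ UTR had 1, 1, 1 and 0 footprints, and the median coding region 110, 105, 137 and 105. Values of 4 libraries are given throughout in the order KO replicate 1, KO replicate 2, WT replicate 1 and WT replicate 2. Pelo itself has a 5′ UTR of 233 nt and is not among them; its coding counts were 24, 21, 101 and 61. The summed shares of some cell type markers differed by genotype: 8 keratinocyte markers took 7.46, 6.90, 3.20 and 3.16% of the coding total. The 8 fibroblast markers took 4.14, 4.72, 8.90 and 13.2%, and 7 macrophage and Langerhans cell markers 0.295, 0.317, 0.657 and 0.674%. Single markers did not all follow these sums. Among those with a short 5′ UTR, coding counts rose in 4 of 5 keratinocyte markers (edgeR adjusted p under 0.05, background 19.9%). They fell in 2 of 3 fibroblast markers and 2 of 5 macrophage and Langerhans cell markers (background 19.1%). Dsc3, Pdgfra and C1qb, 1 from each list, did not pass (log2 0.050, -0.14 and 0.070). Markers of adipocytes, T cells, melanocytes and endothelium each took at most 0.102% in any library. Among these small shares that of melanocytes was higher in both KO libraries, at 0.0287, 0.0147, 0.00213 and 0.00241%. The shares of adipocytes, T cells and endothelium were lower in both KO libraries than in either WT library. Of 7 muscle markers, 1 was listed.

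Summed over all 6101 transcripts, the 5′ UTR density was 37.4, 39.8, 25.7 and 18.2 footprints per 1000 nt, and the coding density 300.02, 275.3, 309.3 and 250.4. Ribosomes were therefore sparse in short 5′ UTRs in every library, at 12.5 and 14.4% of the coding density in KO and 8.32 and 7.26% in WT. The density ratio was 13.5 ± 1.39% in KO and 7.79 ± 0.745% in WT (SD, n = 2 each), or 1.73-fold higher in KO, and the genotypes did not overlap. The two-sided exact permutation test gave p = 0.333, the smallest that 2 against 2 libraries allow. Counted without lengths, a short 5′ UTR held 0.855, 0.990, 0.570 and 0.498 footprints per 100 coding footprints.

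The ratio summed over transcripts was carried by a minority of them. The 10 with the most footprints held 21.8, 18.5, 13.7 and 12.6% of all footprints in short 5′ UTRs, and without them the ratio was 1.47-fold higher in KO. No footprint was found in 48.3, 44.6, 47.5 and 54.2% of short 5′ UTRs, shares that overlapped between the genotypes. The median ratio over transcripts was 1.37, 3.81, 1.82 and 0%, which overlapped between the genotypes (exact p = 0.667). The 75th percentile was 18.6 and 24.8% in KO and 15.5 and 13.9% in WT, so that the upper part of the distribution stood apart where the middle did not. Without the cornified envelope, keratin, collagen and fibroblast genes the summed ratio was 1.66-fold higher in KO.

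In the 3′ UTRs of the same transcripts, which follow the stop codon, the density was 0.918 and 1.04% of the coding density in KO and 1.11 and 1.02% in WT. The genotypes overlapped there (exact p = 0.667). Without the 10 transcripts with the most 3′ UTR footprints it was 0.285 and 0.326% in KO and 0.395 and 0.409% in WT, or 0.761-fold, with KO below WT (exact p = 0.333, the smallest possible). With all transcripts the level was far below that of the 5′ UTRs in every library.

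Within the short range, the ratio to coding was higher in the longer classes. In the 1180 transcripts with 30 to 59 nt the ratio was 7.54, 8.70, 5.72 and 5.93%. In the 1765 with 60 to 99 nt it was 10.01, 11.4, 5.63 and 4.27%. The 1864 with 100 to 149 nt had 15.7, 17.1, 9.20 and 8.09%. The 1292 of 150 nt and over had 19.2, 23.3, 13.1 and 12.5%. Both KO libraries lay above both WT libraries in each of these 4 classes, and in KO the ratio was higher in each longer class, while in WT the 2 shortest classes were in the opposite order. The 5′ UTR density itself did not follow length in KO: it was 29.8, 39.5, 40.9 and 34.3 footprints per 1000 nt from the shortest class to the longest in KO replicate 1 and 30.8, 40.7, 41.6 and 39.4 in KO replicate 2. In WT it was 15.8, 24.3, 27.0 and 27.6 in replicate 1 and 12.6, 15.4, 19.6 and 19.7 in replicate 2. The coding density, the denominator, was lower in the longest class than in the other 3 in every library, for example 178.6 per 1000 nt in KO replicate 1 against 394.6 in the class of 60 to 99 nt. The share with no footprint dropped over the same classes, from 76.6, 73.1, 77.7 and 79.6% at 30 to 59 nt to 26.7, 21.1, 24.7 and 30.5% at 150 nt and over. A short region catches fewer footprints, and the sources used here do not say how the authors placed a footprint relative to the start codon, so length and the treatment of the region's ends cannot be told apart.

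**Figure D1:**
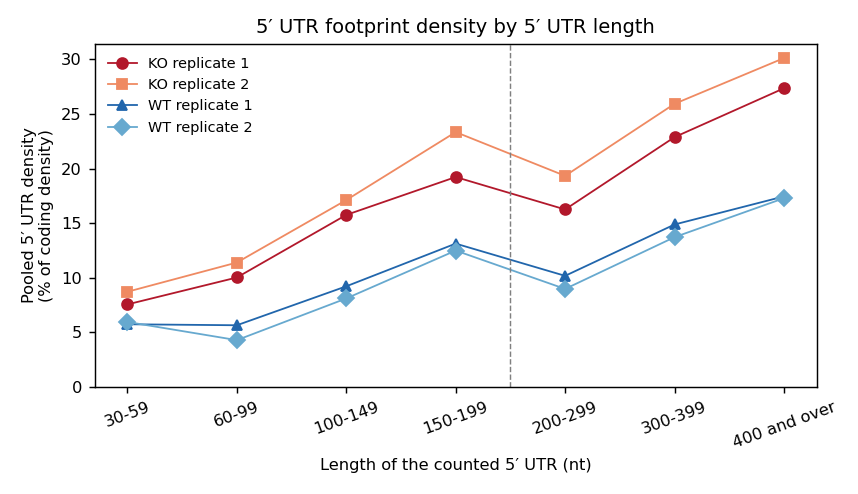
Summed 5′ UTR footprint density as a percentage of the coding density (vertical axis) by counted 5′ UTR length in nt (horizontal axis), 1 line per library, with a dashed line at the boundary between short and longer 5′ UTRs. The KO lines lie above the WT lines in every class, from 7.54 and 8.70% against 5.72 and 5.93% at 30 to 59 nt to 19.2 and 23.3% against 13.1 and 12.5% in the class just below 200 nt.

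At the limits of the length range, the 218 transcripts of 25 to 29 nt had ratios of 3.03, 3.89, 2.82 and 2.86%, and the 203 of 30 to 34 nt just inside had 4.97, 5.26, 3.55 and 4.29%. At the upper limit, the 117 transcripts at most 5 nt under 200 nt had 21.4, 29.8, 14.5 and 14.2%, and the 102 just outside, of 200 nt and less than 5 nt more, had 14.3, 18.4, 7.998 and 5.72%. The longer 5′ UTRs as a whole had ratios of 19.4, 22.2, 12.4 and 11.4%, higher than the short ones in each library. Their KO mean was 1.75-fold the WT mean. On the log2 scale short minus long was -0.63 and -0.62 in KO and -0.57 and -0.65 in WT, a genotype difference of -0.015 (exact p = 1.0), and its sign was positive when only 5′ UTRs of 60 nt and over were taken as short (0.093). At 60 nt and over, short minus long was -0.515 and -0.507 in KO and -0.553 and -0.655 in WT, without overlap. With 2 libraries a group the exact test cannot give a p below 0.333. It therefore cannot decide whether the change with genotype differed between short and longer 5′ UTRs. No footprint in any library was found in 1536 short 5′ UTRs (25.2%) and in 143 long ones (4.03%).

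The ratio was lower where the coding region was more densely covered. With the transcripts divided into 4 equal classes by coding density, which enters the ratio as its denominator, the lowest class (1526 transcripts) had ratios of 26.7, 32.9, 19.9 and 19.0%. The highest class (1525) had 8.04, 9.01, 4.82 and 3.94%. The same highest class held 17490, 17910, 10202 and 6838 of the footprints in short 5′ UTRs. KO lay above WT in all 4 classes.

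Single transcripts were tested for a change of the 5′ UTR count against the coding count of the same transcript, with edgeR's quasi-likelihood test across all 1610 transcripts in which both regions reached 10 counts or more in at least 2 libraries; 449 of them had a short 5′ UTR. A transcript can pass that filter through the genotype in which it is high, so the tested ones do not stand for all 6101: the 5′ UTR reached 10 counts only in both KO libraries in 135 of the 449 and only in both WT libraries in 16. With each region scaled on its own, which sets the typical change of the ratio near 0, 4 short 5′ UTRs were higher in KO against coding (0.891%; background over all tested 0.497%) and 3 lower (0.668%; background 0.683%). With the coding scaling used for both regions, which keeps the overall shift, 153 were higher (34.1%; background 29.6%) and 4 lower (0.891%; background 0.87%). The median log2 change over all 1610 was 0.033 with the first scaling and 0.76 with the second, and over the 449 it was 0.15 and 0.88, so the scaling moved all tested transcripts and not the short 5′ UTRs alone. Without KO replicate 1, KO replicate 2, WT replicate 1 or WT replicate 2, the first scaling gave 6, 11, 19 and 11 calls in place of 7. Without scaling, both KO ratios lay above both WT ratios in 297 of the 449 (66.1%; background 63.7%) and below in 17 (3.79%; background 4.47%).

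The 4 transcripts whose ratio rose differed in which region moved. Ap2m1 encodes the medium subunit of the clathrin adaptor AP-2 (transcript uc007ypy.1, 5′ UTR 135 nt). Its 5′ UTR held 68, 62, 19 and 12 footprints and its coding region 613, 607, 826 and 550. The 5′ UTR was as densely covered as the coding region in KO, at 102 and 94.0%, and far less in WT, at 21.2 and 20.1%. The log2 change of the ratio was 1.51 (SE 0.301, edgeR adjusted p = 0.0286), while coding counts differed by 0.020 (edgeR adjusted p = 0.912); without KO replicate 1 the adjusted p was 0.0683.

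Cldn4, a tight junction claudin (uc008zxd.3, 183 nt), held 60, 59, 19 and 8 footprints in its 5′ UTR against 558, 440, 668 and 435 in its coding region. Its ratio was 33.7 and 42.0% in KO and 8.91 and 5.76% in WT, with no overlap, and the log2 change was 1.57 (SE 0.322, edgeR adjusted p = 0.0286). Sdr16c6, a short-chain dehydrogenase of the retinol family (uc008rwy.1, 111 nt), showed the same division: 54, 61, 21 and 6 footprints in the 5′ UTR and 1214, 1221, 1775 and 1274 in the coding region. Its ratio was 35.7, 40.1, 9.50 and 3.78%, and the log2 change 1.70 (SE 0.338, edgeR adjusted p = 0.0286). In these 3 transcripts the 5′ UTR count itself rose, by log2 1.46, 1.53 and 1.49 in the order given, with edgeR adjusted p of 0.00131, 0.00144 and 0.00284; with DESeq2 the adjusted p were 0.0621, 0.0607 and 0.079, and without WT replicate 2 that of Sdr16c6 was 0.0639 with edgeR.

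Col1a1, the alpha-1 chain of fibrillar collagen I (uc007kzn.1, 93 nt), changed in its coding region, and whether its 5′ UTR count passed depended on the scaling. Its 5′ UTR held 452, 752, 350 and 125 footprints, and its coding region 68499, 75428, 185880 and 233336. The ratio of 30.5 and 46.1% in KO stood against 8.71 and 2.48% in WT, and WT replicate 2 was the lowest of all. The log2 change of the ratio was 2.22 (SE 0.438, edgeR adjusted p = 0.0286); the coding count fell by 1.41 on the log2 scale (edgeR adjusted p = 0.00241), and the 5′ UTR count differed by 0.78 (edgeR adjusted p = 0.0881). With the coding scaling the 5′ UTR count was higher by 1.59 and passed (edgeR adjusted p = 6.31e-05). Without WT replicate 2 the ratio's change was 1.40 and its adjusted p 0.106. Fibroblast markers, of which Col1a1 is one, were at 4.14 and 4.72% of the coding total in KO against 8.90 and 13.2% in WT, and their part in this ratio was not tested.

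In the transcripts whose ratio fell, coding footprints had risen. Klk7, a serine protease of the stratum corneum that takes part in desquamation (uc009gnt.1, 82 nt), held 58, 79, 38 and 20 footprints in its 5′ UTR, the stretch whose ATG is shown above. Its coding count was 10225, 9186, 2192 and 1413, and the ratio 4.77, 7.24, 14.6 and 11.9%. The ratio fell by 1.92 on the log2 scale (SE 0.287, edgeR adjusted p = 0.00858), and coding counts rose by 2.62 (edgeR adjusted p = 5.53e-06). Il1f5, the antagonist of the IL-36 receptor (uc012brp.1, 185 nt), had nearly level 5′ UTR counts of 30, 40, 28 and 25 beside coding counts of 575, 464, 194 and 104. Its ratio of 11.6 and 19.2% in KO lay below the 32.1 and 53.4% of WT and fell by 2.16 on the log2 scale (SE 0.371, edgeR adjusted p = 0.0175). With the coding scaling both remained lower in KO, by log2 -1.18 for Klk7 and -1.43 for Il1f5. The third was the desmosomal plakophilin Pkp3, named after its values were seen since its mean count was under 20: 15, 14, 32 and 14 footprints, a log2 change of -1.73 (edgeR adjusted p = 0.0286), and an adjusted p of 0.0529 with the coding scaling.

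**Figure D2:**
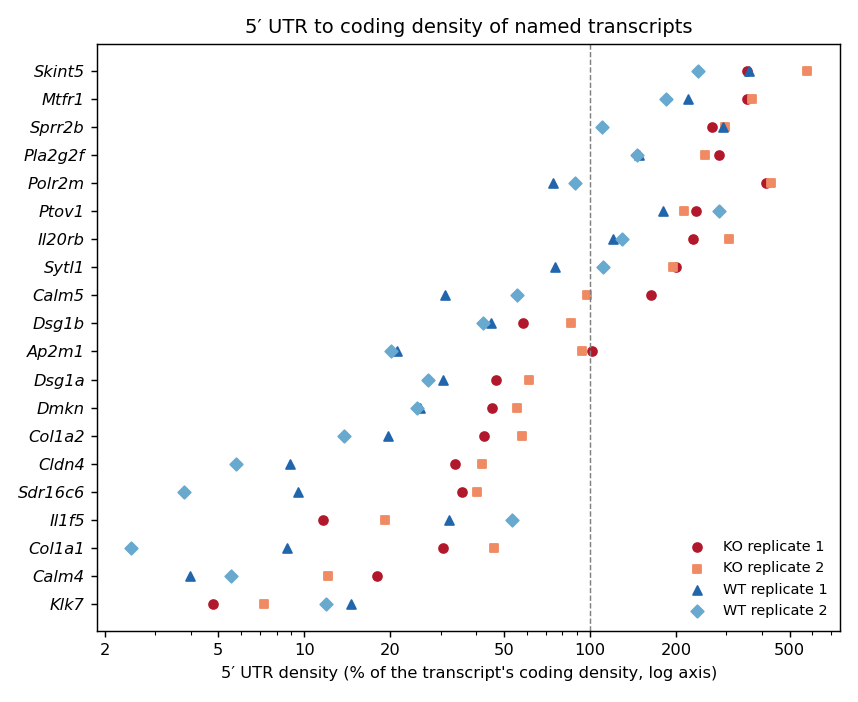
5′ UTR density as a percentage of the coding density of the same transcript (horizontal log axis, dashed line at 100%) for the members with a changed ratio, the most footprints per nt or the highest ratio, 1 symbol per library. Ap2m1 lies at 102 and 94.0% in KO and at 21.2 and 20.1% in WT, while the Skint5 5′ UTR lies above 100% in all 4 libraries.

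Summed over the 4 libraries, the 5′ UTRs with the most footprints per nt belonged to genes of late keratinocyte differentiation, of desmosomes and of collagen I. The order was not the same in both genotypes: Calm4, Calm5 and Sprr2b rank high through KO. In WT alone the 4 densest 5′ UTRs were those of Col1a2, Col1a1, Dmkn and Itm2b, a transmembrane protein gene looked at after its values were seen, with means of 4945, 2554, 2000.0 and 1450 footprints per 1000 nt. Calm4, a calmodulin-like protein of differentiated keratinocytes (uc007pjb.1, 133 nt), held 1165, 614, 50 and 43 footprints, or 8759, 4617, 376 and 323 per 1000 nt. The related Calm5 (uc011yvy.1, 89 nt) held 881, 416, 37 and 38. In both genes the KO libraries stood far above the WT libraries, and KO replicate 1 was above KO replicate 2. Their 5′ UTR counts rose by log2 3.65 and 3.50 (edgeR adjusted p = 1.60e-07 and 3.22e-07), their coding counts by 2.70 and 2.57 (edgeR adjusted p = 8.04e-06 and 9.10e-06). Their ratios changed by log2 0.93 and 0.90, which did not pass the test (edgeR adjusted p = 0.174 and 0.232).

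Sprr2b and Sprr2a2 encode small proline-rich proteins that are cross-linked into the cornified envelope. Sprr2b (uc008qdr.1, 56 nt) held 305, 265, 9 and 6 footprints in its 5′ UTR and 482, 377, 13 and 23 in its coding region. Sprr2a2 (uc012cte.1, 141 nt), whose ATG is shown above, held 312, 269, 9 and 7 beside 6139, 5104, 191 and 312. Both 5′ UTRs reached the filter's 10 counts only in KO. The 5′ UTR counts of the 2 genes are nearly alike, and the Sprr2 genes are close copies of each other, so reads that match both cannot be assigned with certainty. 5′ UTR counts rose by log2 4.62 and 4.56 and coding counts by 4.73 and 4.60, and the ratios changed by -0.051 and -0.054 (edgeR adjusted p = 0.965 and 0.971). The same caution holds for the major urinary protein genes Mup1, Mup7, Mup8 and Mup13, looked at after their values were seen, which each list 10, 13, 21 and 23 footprints in the 5′ UTR.

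Col1a2, the alpha-2 chain of collagen I (uc009avm.1, 137 nt), held 558, 829, 702 and 653 footprints, a level that did not separate the genotypes. Its coding count of 38750, 42493, 105626 and 140994 fell by 1.47 on the log2 scale (edgeR adjusted p = 0.00207), and its ratio was 42.7, 57.8, 19.7 and 13.7%, a log2 change of 0.86 that did not pass (edgeR adjusted p = 0.14). Dmkn, the secreted epidermal protein dermokine (uc009ggi.2, 162 nt), held 859, 798, 416 and 232. Its ratio of 45.6, 55.4, 25.4 and 24.9% changed by log2 0.26 (edgeR adjusted p = 0.585). The desmosomal cadherins Dsg1a (uc008eel.2, 139 nt) and Dsg1b (uc008eem.1, 94 nt) held 342, 342, 207 and 105, and 246, 281, 148 and 80; they too are close copies. Their ratios were 46.8, 61.3, 30.5 and 27.2%, and 58.3, 86.2, 44.9 and 42.1%. With each region scaled on its own, none of these 4 transcripts had a 5′ UTR count that passed the test. With the coding scaling the 5′ UTR counts of Dmkn, Dsg1a and Dsg1b passed, at log2 1.56, 1.35 and 1.42 (edgeR adjusted p = 1.51e-05, 9.27e-05 and 4.43e-05), and that of Col1a2 did not, at 0.20 (edgeR adjusted p = 0.549).

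Some short 5′ UTRs were more densely covered than the coding region behind them. Of the 131 with a mean of at least 20 footprints, 9 had a ratio above 100% in all 4 libraries, and the median of the 131 was 20.3% over the 4 libraries together. Skint5, a butyrophilin-like gene of keratinocytes (uc009vcz.1, 48 nt), whose ATG is shown above, reached 355, 574, 360 and 238% with 27, 23, 54 and 23 footprints. Pla2g2f, a secreted phospholipase of the upper epidermis (uc008vlf.2, 119 nt), reached 284, 254, 148 and 147% with 295, 298, 98 and 56. Mtfr1, a mitochondrial fission regulator (uc008orr.2, 138 nt), reached 356, 371, 221 and 184% with 35, 32, 23 and 14. In the last 2 both KO libraries lay above both WT libraries, in Skint5 they did not. Il20rb, a chain of the IL-20 receptor (uc012gzd.1, 139 nt), had 230, 307, 121 and 130%. Ptov1 (uc009grj.1, 91 nt) had 235, 213, 180 and 283%.

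The ratio of Polr2m (uc009qoz.2, 181 nt), whose product binds RNA polymerase II, lay above 100% in both KO libraries and below it in both WT libraries. The transcript held 33, 30, 7 and 10 footprints in its 5′ UTR and 46, 40, 54 and 65 in its coding region. Its ratio of 413 and 431% in KO stood against 74.6 and 88.5% in WT, a log2 change of 1.62 that missed the threshold (edgeR adjusted p = 0.0771). Its 5′ UTR count rose by log2 1.26 (edgeR adjusted p = 0.0308), a call that was lost without WT replicate 1 (0.71, adjusted p = 0.415), without KO replicate 1 (adjusted p = 0.0911) and with DESeq2 (adjusted p = 0.316). Sytl1, a synaptotagmin-like Rab effector (uc012dmk.1, 133 nt), had 200, 195, 75.5 and 111%, with a log2 change of 0.39 (edgeR adjusted p = 0.567). Of these high-ratio members, the 5′ UTR count of Pla2g2f rose by log2 1.35 (edgeR adjusted p = 0.000831), and its coding count by 1.29. Those of Skint5 and Ptov1 fell by 1.20 and 1.09 (edgeR adjusted p = 0.00804 and 0.0173), but with the coding scaling the values were -0.41 and -0.30 and did not pass. Both calls were also lost with DESeq2 and when some single libraries were left out, for example Skint5 without WT replicate 1 (-0.82, adjusted p = 0.234) and Ptov1 without WT replicate 2 (-0.80, adjusted p = 0.207).

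At the other end, some transcripts with at least 1000 coding footprints in every library had no 5′ UTR footprint at all. Sbsn, the secreted epidermal protein suprabasin (85 nt), had none beside 60979, 44975, 67300 and 40138 coding footprints. A count of 0 allows up to 3 counts over the 4 libraries, which for Sbsn is a ratio of up to 0.0329%. For Ywhaz (a 14-3-3 protein, 124 nt) that limit was 0.116%, for the initiation factor Eif4a1 (116 nt) 0.206% and for the saposin-like Psapl1 (39 nt) 0.384%. For Macf1, a giant cytoskeletal linker (165 nt), it was 2.31%. These limits cover counting error only, and reads that could not be placed uniquely may have been dropped from such regions.

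As counts alone, 5′ UTR footprints rose in 87 of the 449 tested short 5′ UTRs (19.4%; background 11.3%) and fell in 40 (8.91%; background 12.1%). Of the 87, 50 reached 10 counts only in KO, and of the 40, 14 only in WT. With the coding library totals and scaling they rose in 231 (51.4%; background 38.9%) and fell in 10 (2.23%; background 3.29%). The 127 calls of the first scaling became 42, 55, 67 and 84 without KO replicate 1, KO replicate 2, WT replicate 1 or WT replicate 2, and 24 with DESeq2. Coding footprints rose in 1309 of 6063 members tested (21.6%; background 19.9%) and fell in 1063 (17.5%; background 19.1%). With plain library totals the coding split was 913 higher and 1539 lower, and the members' median log2 change moved from 0.015 to -0.16. The 5′ UTR and coding changes come from the same libraries, so they are set side by side without a measure of their likeness.

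**Figure D3:**
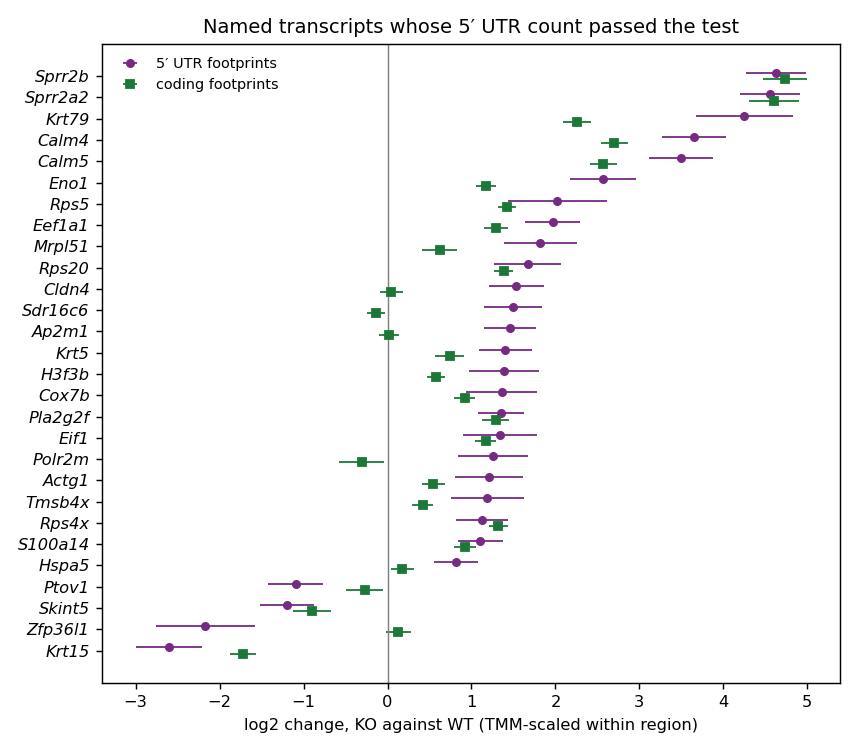
Log2 change of 5′ UTR counts (circles) and of coding counts (squares), KO against WT with each region scaled on its own, for the named members whose 5′ UTR count passed the test; bars are standard errors of the fit. Of these members 24 lie above 0 and 4 below for the 5′ UTR, from Sprr2b at 4.62 to Krt15 at -2.60.

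Among genes of the cornified envelope, the protein shell of dead keratinocytes, 31 had a short 5′ UTR. Their summed ratio was 23.6, 21.7, 7.96 and 6.80%, and 18.8, 15.7, 3.14 and 2.71% without Dmkn, which held the most footprints. The 5′ UTR count rose in 9 of 12 tested and fell in none (background over all tested 11.3% higher and 12.1% lower). Of those 12, 6 reached the filter's 10 counts only in KO, and all 6 are among the 9. Coding counts rose in 25 of 31 and fell in 1 (background 19.9% higher and 19.1% lower). The ratio to coding passed the test in 1 of the 12, which was lower in KO. These genes made up 7.86, 7.06, 3.76 and 3.13% of the coding total, more in both KO libraries than in either WT library.

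Keratins, the intermediate filament proteins of epithelia, had a much lower ratio: 3.24, 2.36, 2.36 and 2.12% over 21 transcripts, 5 of them without any 5′ UTR footprint. Krt5 held 51.7% of these footprints, and without it the ratios were 1.68, 1.48, 1.89 and 1.51%, which overlapped between the genotypes. The 5′ UTR count rose in 6 of 7 tested and fell in 1 (background over all tested 11.3% higher and 12.1% lower). Of the 6 that rose, 5 reached the filter's 10 counts only in KO; a member that passes the filter in that way is chosen for a high KO count, so this count is a description. Coding counts rose in 15 of 21 and fell in 1 (background 19.9% higher and 19.1% lower). Krt5, the basal keratin (75 nt), held 247, 129, 49 and 44 footprints, and its 5′ UTR count rose by log2 1.40 (edgeR adjusted p = 0.00194) beside 0.74 for coding. Krt79 (104 nt), whose window begins with ATG, held 56, 36, 2 and 1 footprints and rose by 4.25 (edgeR adjusted p = 7.11e-06) beside 2.25 for coding. Krt15, a keratin of basal cells and the hair follicle bulge (85 nt), went the other way with 12, 6, 44 and 29 and fell by 2.60 (edgeR adjusted p = 3.38e-05) beside -1.72 for coding.

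The 5 collagens with a short 5′ UTR had ratios of 28.9, 41.6, 11.7 and 6.81%. Most of their footprints were those of Col1a2 (61.1%), and without it the values were 20.4, 31.1, 6.34 and 1.91%. Coding counts fell in 3 of 5 (background 19.1% lower). The 5′ UTR count passed in none of the 3 tested with each region scaled on its own, and rose in 2 of the 3 with the coding scaling (background 38.9%). Col6a2, 1 of those 2, held 10, 20, 4 and 7 footprints and reached the filter's 10 counts only in KO. All collagens made up 4.37, 4.91, 8.63 and 12.8% of the coding total. The 16 desmosome and hemidesmosome genes, which anchor keratinocytes to each other and to the basement membrane, had 31.4, 37.7, 20.6 and 16.8%, and 22.6, 26.8, 15.3 and 12.8% without Dsg1a. The 5′ UTR count rose in none of the 8 tested and fell in 1, Pkp3 (background over all tested 11.3% higher and 12.1% lower). With the coding scaling it rose in 4 of the 8 and fell in none (background 38.9% and 3.29%), with Pkp3 at -0.46 (edgeR adjusted p = 0.384). Of the 8 tested, 3 reached the filter's 10 counts only in KO. Coding counts rose in 7 of 16 and fell in 1 (background 19.9% higher and 19.1% lower).

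Genes of the translation apparatus had low ratios beside dense coding regions. Their 5′ UTRs were not bare. No footprint in any library was found in 15 of the 68 cytosolic ribosomal protein genes and 9 of the 42 translation factors (25.2% over all short 5′ UTRs). The 68 cytosolic ribosomal protein genes with a short 5′ UTR, whose messages start with a terminal oligopyrimidine tract, had ratios of 2.10, 2.28, 1.45 and 1.87%, from 304, 315, 99 and 96 footprints in all. The 5′ UTR count rose in 4 of 5 tested (background 11.3%), of which 3 reached 10 counts only in KO. Coding counts rose in 66 of 68 and fell in none (background 19.9% higher and 19.1% lower). Rps4x (45 nt) held 73, 62, 18 and 22 footprints and rose by log2 1.12 in the 5′ UTR (edgeR adjusted p = 0.0101) and 1.32 in coding; the 5′ UTR call was lost without WT replicate 1 (0.67, adjusted p = 0.234) and with DESeq2 (adjusted p = 0.203). Rps20 (108 nt) held 33, 46, 8 and 8 and rose by 1.67 (edgeR adjusted p = 0.00384) and 1.38, and without WT replicate 1 its 5′ UTR change was 1.35 (adjusted p = 0.0809). Ribosomal protein genes have many pseudogene copies, and the sources used here do not say how reads that match a copy were counted.

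The 42 translation factors had ratios of 4.26, 5.60, 4.13 and 3.48%. Among them Eef1a1, the elongation factor that brings aminoacyl-tRNA to the ribosome (114 nt), held 64, 69, 12 and 10 footprints beside 33968, 32255, 17088 and 13463 in the coding region. Its 5′ UTR count rose by log2 1.97 (edgeR adjusted p = 0.000101) and its coding count by 1.29. In the list the 5′ UTR count rose in 3 of 13 tested (background 11.3%), of which 2 reached 10 counts only in KO. Coding counts rose in 31 of 42 (background 19.9%), and none fell in either region. Histones were lower still: the 25 transcripts had 0.994, 1.42, 1.17 and 1.03%, and the genotypes overlapped.

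Nuclear genes of mitochondrial proteins had higher ratios than cytosolic ribosomal proteins in every library. The 44 mitochondrial ribosomal protein genes had 16.8, 18.3, 5.77 and 6.09%, from only 103, 106, 34 and 26 footprints, and 23 of them had none. Both members tested in this list reached the filter's 10 counts only in KO. Mrpl51 (149 nt), which is 1 of them, held the most footprints of the list, with 33, 33, 5 and 7. Its 5′ UTR count rose by log2 1.82 (edgeR adjusted p = 0.0038) beside 0.62 for coding; it was 1 of 2 tested in the list, and the call was lost without WT replicate 1 (1.28, adjusted p = 0.14) and with DESeq2 (adjusted p = 0.108). The 54 respiratory chain genes had 9.87, 10.4, 4.59 and 4.87%, with the 5′ UTR count higher in 5 of 12 tested and lower in none (background 11.3% higher and 12.1% lower). Of the 5, 2 reached 10 counts only in KO. Coding counts of this list rose in 38 of 53 tested (background 19.9%).

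Groups of cell maintenance lay between these. The 29 proteasome genes had ratios of 8.63, 9.73, 3.79 and 4.27%, the 48 chaperones 7.39, 8.70, 4.52 and 4.64%, and the 22 genes of the endoplasmic reticulum translocon and secretory pathway 5.02, 6.76, 3.36 and 2.38%. Hspa5, the chaperone BiP, is in the last 2 lists (144 nt). It held 80, 93, 37 and 27 footprints in its 5′ UTR, and that count rose by log2 0.82 (edgeR adjusted p = 0.0268) beside 0.18 for coding (edgeR adjusted p = 0.334). That call was lost without KO replicate 2, WT replicate 1 or WT replicate 2 (adjusted p = 0.0617, 0.171 and 0.115) and with DESeq2 (adjusted p = 0.304). The 22 actin cytoskeleton genes had 3.43, 4.29, 1.71 and 1.84%. The 8 glycolysis genes had 6.38, 7.81, 2.31 and 1.94%, and 2.62, 3.25, 1.82 and 1.93% without Eno1. Eno1 (enolase, 147 nt) held most of their footprints, with 51, 59, 8 and 4. Its 5′ UTR count rose by log2 2.57 (edgeR adjusted p = 3.65e-05) beside 1.17 for coding. It was the only glycolysis gene tested and reached the filter's 10 counts only in KO. The 16 antioxidant genes had 8.002, 11.5, 5.02 and 3.83%. In the 10 S100 genes the ratio was 6.54, 8.64, 3.38 and 3.17%, but without S100a14 it was 1.43, 1.44, 1.79 and 1.21%, so that 1 gene carried the difference there.

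In the immediate early genes, which respond within minutes to a stimulus, KO did not lie above WT. The 11 with a short 5′ UTR had ratios of 12.6 and 15.7% in KO and 16.1 and 17.5% in WT. Dusp1 held 41.3% of their footprints, and without it the ratios were 8.41 and 10.5% in KO and 10.4 and 11.3% in WT, so that the genotypes overlapped. Dusp1, a phosphatase of MAP kinases (143 nt), held 23, 49, 36 and 32 footprints in its 5′ UTR and had 40.5, 55.4, 62.4 and 83.4%. Fos (133 nt) held 6, 33, 10 and 13, and KO replicate 2 had several times the count of KO replicate 1 in both regions. Zfp36l1, which binds AU-rich elements and promotes decay of the messages (132 nt), held 2, 6, 11 and 13. Its 5′ UTR count fell by 2.17 on the log2 scale (edgeR adjusted p = 0.00876), or by 1.38 with the coding scaling (edgeR adjusted p = 0.0506), while coding counts differed by 0.13 (edgeR adjusted p = 0.53). Without KO replicate 1 it was -1.50 (adjusted p = 0.32), and without KO replicate 2 -2.88 (adjusted p = 0.124). It was the 1 of 3 tested in the list that passed (background 12.1% lower), and it reached the filter's 10 counts only in WT. Coding counts of this list rose in 5 of 11 and fell in 1 (background 19.9% higher and 19.1% lower). The 11 short 5′ UTRs of genes known for control by upstream reading frames or polyamines had 10.3, 15.7, 8.51 and 7.50%; Cebpa, a transcription factor with a known upstream reading frame, held 29, 51, 29 and 14 of their footprints.

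**Figure D4:**
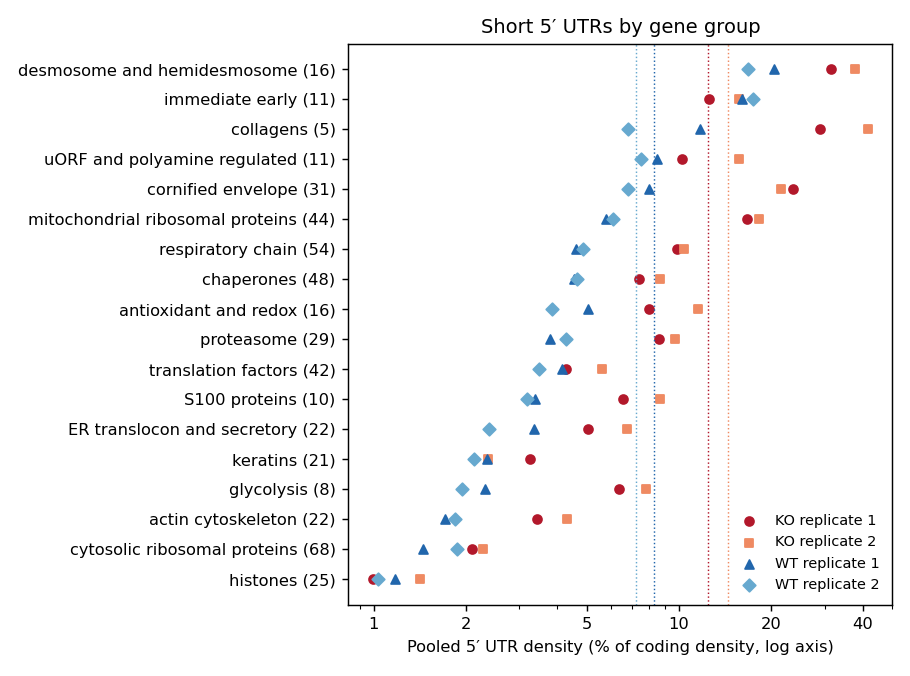
Summed 5′ UTR density of short 5′ UTRs as a percentage of coding density (horizontal log axis) for each gene group, with the number of transcripts in brackets, 1 symbol per library; dotted lines mark each library's value over all 6101. Among the 18 gene groups plotted, which leave out the marker lists of cell types, histones and cytosolic ribosomal proteins lie lowest and desmosome genes highest by their WT mean. The immediate early genes are the only group plotted with both KO libraries below both WT libraries, which does not hold without Dusp1.

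Transcripts with and without ATG in the first 50 bases were compared within each library as a description. The 617 with ATG had ratios of 11.4, 13.4, 8.87 and 7.96%, and the 2664 without had 15.6, 17.4, 9.34 and 8.26%. Without the 10 transcripts with the most footprints in each group the values were 9.86, 12.6, 8.28 and 7.57% against 11.8, 14.6, 8.85 and 8.25%. By summed density, transcripts with ATG in this window were therefore not the more densely covered ones in any library. The share with no footprint went the other way, at 34.4, 31.4, 34.2 and 45.9% with ATG against 45.0, 41.5, 44.1 and 51.6% without. The median 5′ UTR of those with ATG was 120 nt long, against 108 nt for the others. KO lay above WT in both groups.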

How the data were processed

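Footprints were counted in 2 KO and 2 WT ribosome profiling libraries, out of 7 labelled libraries. Per the file headers, the deposited values are raw counts per transcript, given separately for 5′ UTR, coding region and 3′ UTR. Bowtie2 2.2.6, TopHat2 2.0.10, CASAVA 1.8 and the builds mm9 and hg19 are named in the submitters' processing notes, without roles. The 2 deposited tables, described as footprints of 28 to 34 nt and of 20 to 22 nt, are identical, so the length class is unknown. In each transcript 71 nt lie outside the 3 regions. Counts are listed only above a coding density of about 0.0100 per nt.

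Tests used edgeR 4.0.16 in R 4.3.3 (quasi-likelihood, TMM within each region, Benjamini-Hochberg over all transcripts tested, threshold 0.05, at least 10 counts in at least 2 libraries). For the ratio the tested term was genotype by region, with library as a factor. The biological coefficient of variation was 10.3% for the ratio, 15.6% for 5′ UTR counts and 11.1% for coding counts. Single values per library were compared with exact two-sided permutation tests. The comparison of short with long 5′ UTRs was planned on medians, but a median of 0 has no logarithm, so summed ratios were used. Counts were also simulated, with a subset of the transcripts changed and the same dispersion for every transcript. Among 1381 transcripts tested, the ratio test called 20.0% of the changes of log2 1 and 87.8% of those of log2 2. Of its calls, 7.96% were on unchanged ones. For 5′ UTR counts (1378 transcripts) these were 38.5, 98.6 and 2.86%, and for coding counts (10920) 62.0, 99.0 and 5.29%. These rates belong to that setting and need not hold for the real counts.

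The members, the 26 gene lists and the tests were chosen with earlier results of these data known. Named were members without a predicted-gene symbol: up to 8 largest changes of the ratio each way among those past the threshold with no overlap of genotypes and a mean 5′ UTR count of at least 20, the 8 with the most footprints per nt, the 8 with the highest ratio at that mean, the 6 with the lowest ratio among those with at least 1000 coding counts in every library, up to 3 per list with the most footprints, and Pelo. Of the genes this rule names, 1 is not reported here. Other genes named were chosen after their values were seen. Alternatives were DESeq2 1.42.0, library totals, no count filter, a replicate block, coding scaling for both regions, other length limits and leaving out each library.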

Additional observations from a re-analysis of the deposited data

How the results depend on the processing

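The 7 calls of a changed ratio became 3 with DESeq2, 12 with library totals, 12 with no count filter and 157 with the coding scaling for both regions, and between 6 and 19 when 1 library was left out. The 127 calls on 5′ UTR counts became 24 with DESeq2 and 241 with the coding totals and scaling, an alternative added after seeing the data, and between 42 and 84 when 1 library was left out. The 2372 coding calls became 1507 with DESeq2 and between 1833 and 2110 when 1 library was left out. Leaving out a library also leaves fewer transcripts past the filter; otherwise the cause of these moves was not tested. DESeq2 kept 3 of the 7 ratio calls (Col1a1, Il1f5 and Klk7). Of the named genes, none of the 7 ratio calls and 28 calls on 5′ UTR counts changed direction under the alternatives run. Ratios that passed no test could do so: with the coding scaling that of Skint5 was 0.53 in place of -0.20 and that of Sprr2b 0.65 in place of -0.051.

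Replicate numbers are shared between the genotypes, but the labels do not say that a number marks a shared animal or day, and same-numbered libraries did not deviate together (r = 0.0248 over 1610 5′ UTRs and -0.00506 over 10953 coding regions). With the replicate number as a block, edgeR left 0 ratio calls (77 members at an unadjusted p under 0.05), 5 calls on 5′ UTR counts and 2404 on coding counts.

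The summed ratio, 1.73-fold higher in KO, was 1.86-fold for those of 60 nt and over, 2.74-fold for the 125 members with at least 10 footprints in every library, and 1.60-fold to 1.85-fold without 1 library. The median ratio, 1.68 percentage points higher in KO, was between 0.465 and 2.90 points without 1 library. The genotype difference of short minus long, -0.015 on the log2 scale, turned positive with short 5′ UTRs of 60 nt and over (0.093), with at least 10 footprints in every library (0.55), against 5′ UTRs of 300 nt and over (0.057) and without WT replicate 1 (0.025); it was between -0.055 and 0.025 without 1 library.

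Depth is a limit: the median short 5′ UTR held 1 footprint or none, and 449 of 6101 passed the filter for a test.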

Other observations

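Other short 5′ UTRs with large changes in count, chosen after their values were seen, included proteases, keratins and transport proteins. Klk6, a kallikrein protease (99 nt), held 155, 152, 3 and 2 footprints in its 5′ UTR beside 7924, 7771, 268 and 338 in its coding region. The 5′ UTR count rose by log2 5.28 (edgeR adjusted p = 4.34e-10) and the coding count by 4.84. Krt6b, a keratin of activated keratinocytes (60 nt), held 20 and 18 footprints in KO and 0 in both WT libraries, and Stfa1, a stefin that inhibits cysteine proteases (42 nt), 11 and 10 in KO and 0 in both WT libraries. Crabp2, a binding protein of retinoic acid (142 nt), held 27, 49, 2 and 3; its 5′ UTR count rose by log2 3.25 (edgeR adjusted p = 9.91e-05) and its coding count by 0.94. Aqp3, the aquaglyceroporin of the basal and spinous layers (68 nt), held 27, 23, 4 and 1 and rose by 2.67 in the 5′ UTR (edgeR adjusted p = 0.00142) and 2.17 in coding. Each of these 5′ UTRs reached the filter's 10 counts only in KO. Each thus entered the test through the genotype in which it is high, and the calls are a description.

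Among those that fell, Serpina3b, a serine protease inhibitor (85 nt), held 1, 2, 31 and 19 footprints beside 29, 92, 2168 and 2243 coding footprints. Its 5′ UTR count fell by 4.53 on the log2 scale (edgeR adjusted p = 2.53e-06) and its coding count by 5.02. Skint6, like Skint5 a butyrophilin-like gene of keratinocytes (48 nt), held 3, 2, 16 and 10, and its ratio was 41.8 and 42.8% in KO and 119 and 119% in WT. Its 5′ UTR count fell by 2.91 (edgeR adjusted p = 0.00108) and its coding count by 0.69. The change of its ratio, log2 -2.21, did not pass the test (edgeR adjusted p = 0.0813). Sult5a1, a sulfotransferase (94 nt), held 3, 4, 17 and 15 and fell by 2.76 (edgeR adjusted p = 0.000715) beside 0.41 in coding. Serpina3b, Skint6 and Sult5a1 reached the filter's 10 counts only in WT. They were tested through the genotype in which they are high, so their calls are a description.

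Ang and Rnase4 each list 25, 28, 21 and 19 footprints in their 5′ UTRs, while their coding counts were 46, 44, 34 and 61, and 1182, 1119, 1946 and 1611.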
